A study of Mus musculus with 8 samples.

Results

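A set of 10 genes that mark or drive the fat cell lineage were followed in bone marrow mesenchymal stem/progenitor cells (MSPCs): Lepr, Adipoq, Pparg, Cebpa, Cebpb, Lpl, Fabp4, Plin1, Cidec and Apoe. They were chosen by name, and all 10 were found by Ensembl identifier among the 52636 genes of the deposited count table. RNA was sequenced from MSPCs of 8 mice, in 4 CTL libraries (Flk2-cre+ Cxcr4fl/+) and 4 cKO libraries (Flk2-cre+ Cxcr4fl/fl), all on the C57BL/6 background and labelled as 6 weeks of age (the methods give an older range for all mice). The Flk2-cre transgene is carried by both groups and is active in hematopoietic multipotent progenitors and their progeny, so that Cxcr4 is deleted in blood cells and not in the MSPCs themselves, and CTL mice keep 1 intact allele. The cells were sorted as CD45- Ter119- CD31- CD144- PDGFRα+ SCF-GFP+, and the GFP gate means that both groups carry the GFP allele of Kitl, the SCF gene. The comparison asks whether the fat lineage program of niche cells differs when hematopoietic progenitors lack CXCR4.

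MSPCs of the marrow surround the sinusoids, supply CXCL12 and SCF to hematopoietic stem cells, and can give rise to bone and fat cells. Adipogenesis runs through a cascade in which CEBPB acts early and induces PPARγ and CEBPA, which then sustain each other and switch on the genes of lipid uptake and storage. Lepr, the leptin receptor, and Adipoq, the hormone adiponectin, mark most MSPCs, whereas PLIN1 and CIDEC coat the lipid droplet of a mature fat cell.

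Total counts lay between 31047344 and 38216877 per library. The 9 MSPC markers examined, among them Cxcl12, Kitl and Pdgfra, had counts in every library. The sample titles end in a bracketed number of unstated meaning, which is 26 to 32 for CTL2, CTL4, cKO2 and cKO4 and 67 to 86 for CTL1, CTL3, cKO1 and cKO3, so that each range holds 2 libraries of each genotype. Every member was compared between genotypes and between these title number groups. Levels are given as CPM, the counts scaled to a common library size by the TMM method, and levels of different genes are set side by side only as TPM, which also takes the length of the transcripts into account.

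Per length, the means of the members ran from 0.378 TPM for Plin1 to 7160 TPM for Adipoq. Adipoq was the highest, at 7160 ± 1510 TPM (SD, n = 8), and took place 12 among all genes. Apoe followed at 3040 ± 797 TPM, Lpl at 2335 ± 609 TPM and Lepr at 2115 ± 268 TPM. Adipoq was higher than Apoe in 8 of 8 libraries (two-sided exact sign-flip permutation test on log2 TPM, p = 0.00781, the lowest 8 pairs allow, and adjusted p = 0.0141 over 9 pairs of neighbors). Apoe, Lpl and Lepr were not separated in this order: Apoe was above Lpl in 5 of 8 libraries (exact permutation adjusted p = 0.191), and Lpl was above Lepr in 4 of 8 (exact permutation adjusted p = 0.624). The transcription factors came next, with Cebpb at 454 ± 81.9 TPM, Cebpa at 342 ± 64.7 TPM and Pparg at 155 ± 30.7 TPM. The ranges of Cebpa and Pparg did not overlap (exact permutation adjusted p = 0.0141). Those of Cebpb and Cebpa did, and Cebpb was above Cebpa in 7 of 8 libraries, all but cKO3 (exact permutation adjusted p = 0.0234). Fabp4 was far lower, at 18.6 ± 10.3 TPM, and the droplet genes Plin1 and Cidec lay at the limit of detection, between 0 and 1.56 TPM and between 0 and 3.00 TPM.

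The place of Lpl and the level of Fabp4 depended on the gene length used. With the longest protein-coding transcript in place of all annotated exons, an alternative chosen after seeing the data, which shortens Lpl from 10478 to 4115 bases and Fabp4 from 4489 to 896 bases, Lpl stood at 4450 TPM, above Apoe at 3457 TPM. Fabp4 then stood at 69.8 TPM and kept place 8 of 10.

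**Figure D1:**
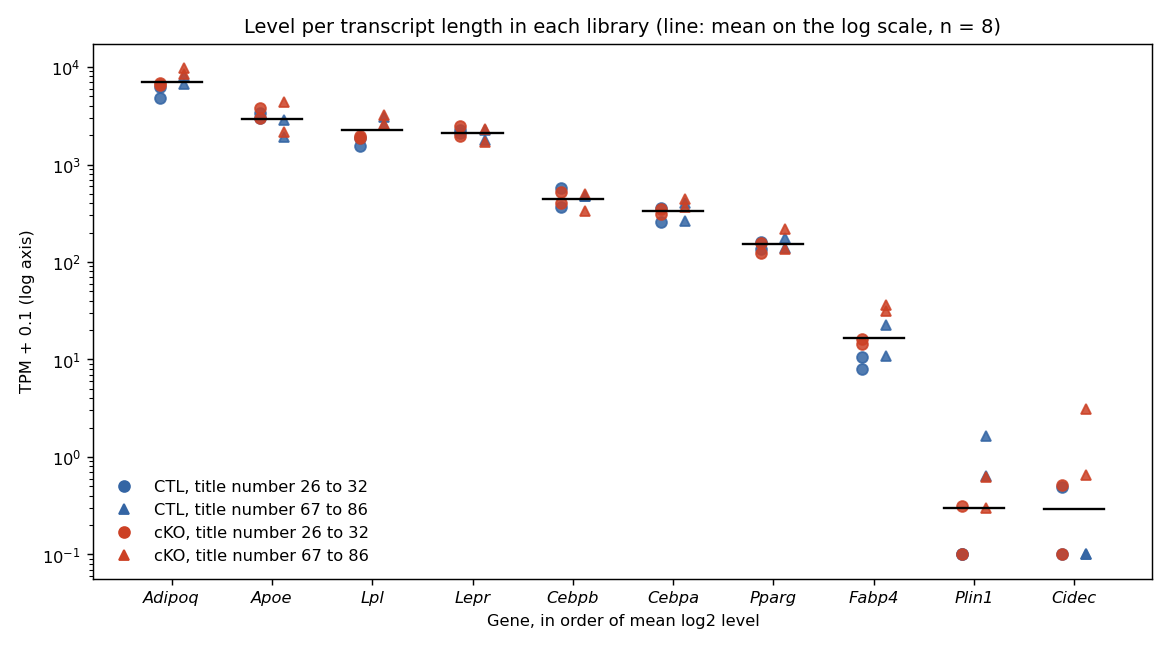
Level of the 10 genes per length in each of the 8 libraries, as TPM plus 0.1 on a log axis, with the mean on the log scale as a line, color for genotype and symbol for title number group. Adipoq is highest at a mean of 7160 TPM, the 3 transcription factors lie between Lepr and Fabp4, and Plin1 and Cidec reach 0 in several libraries.

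Stretches of DNA are shown because they precede the start of the highest member, of the master regulator and of a droplet gene that was nearly silent. They are the 250 bases before a start in RefSeq on GRCm38.p6, read 5′ to 3′ on the strand of the gene, for Adipoq (chr16:23146286-23146535, plus strand), for the downstream start of Pparg (chr6:115421816-115422065, plus strand), and for Plin1 (chr7:79732777-79733026, minus strand). Capitals mark matches on either strand to TTGCNNAA, the core bound by C/EBP proteins.
Adipoq: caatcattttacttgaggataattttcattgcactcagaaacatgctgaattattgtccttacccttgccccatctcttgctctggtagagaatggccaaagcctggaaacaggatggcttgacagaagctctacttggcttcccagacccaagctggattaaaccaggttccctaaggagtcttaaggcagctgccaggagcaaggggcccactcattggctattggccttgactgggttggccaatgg
Pparg: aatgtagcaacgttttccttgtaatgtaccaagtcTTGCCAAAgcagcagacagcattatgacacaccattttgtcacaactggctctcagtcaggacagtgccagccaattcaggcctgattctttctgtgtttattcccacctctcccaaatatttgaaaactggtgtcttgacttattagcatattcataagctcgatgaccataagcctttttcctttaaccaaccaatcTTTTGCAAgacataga
Plin1: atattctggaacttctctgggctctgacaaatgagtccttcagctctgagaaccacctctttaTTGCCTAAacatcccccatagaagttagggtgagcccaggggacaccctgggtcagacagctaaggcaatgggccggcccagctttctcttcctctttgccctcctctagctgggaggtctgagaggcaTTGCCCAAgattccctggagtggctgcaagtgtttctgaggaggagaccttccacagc

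The windows of 8 members were searched, with 14 starts in all. TTGCNNAA was found at 3 of the 14 starts, those of Plin1, of the downstream Pparg start and of 1 of the Cidec starts, against 9.56% of 32851 mouse promoters of the same length. AGGTCA, the half-site of nuclear receptors such as PPARγ, was found at 2 of the 14 starts, both upstream starts of Pparg, against 14% of promoters. Counts are per gene, so that the starts of Pparg cannot be told apart in these data.

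Lepr (ENSMUSG00000057722.17, chr4:101717404-101815352) encodes the receptor that gives these cells their usual name. Its level was 3815, 4348, 4814 and 4657 CPM in CTL1 to CTL4 and 3570, 4993, 4914 and 4244 CPM in cKO1 to cKO4. The groups overlapped almost completely, and CTL1 and cKO1 were the lowest library of each. With edgeR's quasi-likelihood test the log2 fold change (cKO against CTL) was 0.0072 (SE 0.14). Lepr was the steadiest member, with a coefficient of variation of 11.8% over the 8 libraries. This value was at the 27.4th percentile of the 9398 tested genes with a mean level of 10 CPM or more.

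Pparg (ENSMUSG00000000440.12, chr6:115360951-115490399) encodes the nuclear receptor without which fat cells do not form. It measured 155, 118, 122 and 138 CPM in CTL1 to CTL4 and 191, 104, 121 and 140 CPM in cKO1 to cKO4. The cKO libraries held both the highest and the lowest value, and the log2 fold change was 0.06 (SE 0.18).

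Cebpa (ENSMUSG00000034957.10, chr7:35119293-35121928), the partner of Pparg in terminal differentiation, measured 317, 277, 207 and 195 CPM in CTL1 to CTL4 and 345, 234, 290 and 279 CPM in cKO1 to cKO4. Cebpb (ENSMUSG00000056501.3, chr2:167688915-167690418), the early factor, measured 215, 254, 213 and 159 CPM in CTL1 to CTL4 and 221, 171, 151 and 237 CPM in cKO1 to cKO4. Both pairs of groups overlapped. The log2 fold changes were 0.20 (SE 0.17) for Cebpa and -0.11 (SE 0.18) for Cebpb. Cebpb shares 312 exonic bases with Tmem189 on the opposite strand, and Tmem189 had 2617 to 4810 counts per library. The strand setting of the counting is not given in the sources used here, so that reads of these genes in the shared bases cannot be told apart. Cebpa shares 51 exonic bases with the antisense gene Gm45091 (25 to 250 counts), and Pparg shares none with Gm44079, which lies in its introns (0 to 13 counts).

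Adipoq (ENSMUSG00000022878.5, chr16:23146536-23158028) encodes adiponectin, a hormone secreted by fat cells and by marrow stroma. Its level was 2747, 1986, 3323 and 2496 CPM in CTL1 to CTL4 and 3965, 2558, 3545 and 2887 CPM in cKO1 to cKO4. In each title number group both cKO libraries were above both CTL libraries, with only 2 libraries of each genotype in each. The share of all genes with this order is not given here. Across title number groups the genotypes overlapped, since CTL3 was above cKO2 and cKO4. The log2 fold change was 0.30 (SE 0.18, unadjusted p = 0.135), and the cKO minus CTL difference of mean log2 CPM was 0.29 within title numbers 26 to 32 and 0.31 within 67 to 86. When edgeR was fitted with a term for title number, which left 781 genes at an unadjusted p under 0.05 and 0 past the threshold, the log2 fold change was 0.29 (SE 0.11), with an unadjusted p of 0.0247 and an adjusted p of 0.921, and the same fit gave 0.87 for Fabp4 (SE 0.23, unadjusted p = 0.0042, adjusted p = 0.864).

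Lpl (ENSMUSG00000015568.16, chr8:68880491-68907448) encodes lipoprotein lipase, which releases fatty acids from circulating triglyceride. Its counts were the largest of the members, at 158249 to 325292 per library, or 34.6% to 50.6% of all member counts. It measured 8050, 4828, 9650 and 5679 CPM in CTL1 to CTL4 and 9918, 5591, 8238 and 6247 CPM in cKO1 to cKO4. High and low libraries were found in both genotypes, and the log2 fold change between genotypes was 0.09 (SE 0.25). The 4 high libraries were those with title numbers 67 to 86.

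Fabp4 (ENSMUSG00000062515.3, chr3:10204088-10208576) encodes the carrier that moves fatty acids inside fat cells and is a direct target of PPARγ. It measured 14.5, 10.5, 30.3 and 13.7 CPM in CTL1 to CTL4 and 47.9, 20.5, 42.1 and 19.7 CPM in cKO1 to cKO4, a mean of 17.2 ± 8.85 against 32.5 ± 14.6 CPM (SD, n = 4). CTL3 was above cKO2 and cKO4, so that the groups overlapped. Its log2 fold change of 0.92 (SE 0.39) was the largest among the members tested, with an unadjusted p of 0.0401 and an adjusted p of 1.00 (edgeR, Benjamini-Hochberg). The difference of mean log2 CPM was 0.72 within title numbers 26 to 32 and 1.08 within 67 to 86, and both cKO libraries were above both CTL libraries in each. Each group holds only 2 libraries of each genotype, and the share of all genes with this order is not given here. With 4 against 4 libraries the exact permutation test on mean log2 CPM gave p = 0.143 (two-sided), where the lowest it can give is 0.0286. Its coefficient of variation of 55.6% was at the 98.8th percentile of the 9398 tested genes with a mean level of 10 CPM or more.

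Apoe (ENSMUSG00000002985.16, chr7:19696109-19699188) encodes a carrier of lipoprotein lipids that is made by many stromal cells and macrophages. It measured 1232, 2117, 1816 and 1861 CPM in CTL1 to CTL4 and 1353, 1809, 2806 and 2462 CPM in cKO1 to cKO4. As for Lepr, CTL1 and cKO1 were lowest in their groups, and the groups overlapped. The log2 fold change was 0.26 (SE 0.23). The summed level of 11 macrophage markers was 22.8 to 51.5 CPM in CTL and 28.6 to 52.5 CPM in cKO, and its part in the Apoe level was not tested.

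Plin1 (ENSMUSG00000030546.14, chr7:79720218-79732903) and Cidec (ENSMUSG00000030278.11, chr6:113424634-113435760) encode the droplet coat protein that gates lipolysis and the protein that fuses droplets into larger ones. Plin1 had 23, 0, 70 and 0 counts in CTL1 to CTL4 and 9, 10, 24 and 0 counts in cKO1 to cKO4. Cidec had 0, 7, 0 and 0 counts in CTL1 to CTL4 and 10, 0, 55 and 9 counts in cKO1 to cKO4. Single libraries carried most of these counts: CTL3 for Plin1 and cKO3 for Cidec. A count of 0 allows up to 3 counts, or 0.0781 to 0.0972 CPM depending on the library, and this covers counting error only. Neither gene had a count in every library, so that 8 of the 10 members passed the filter of the test. At this depth no difference between genotypes was detectable in either.

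**Figure D2:**
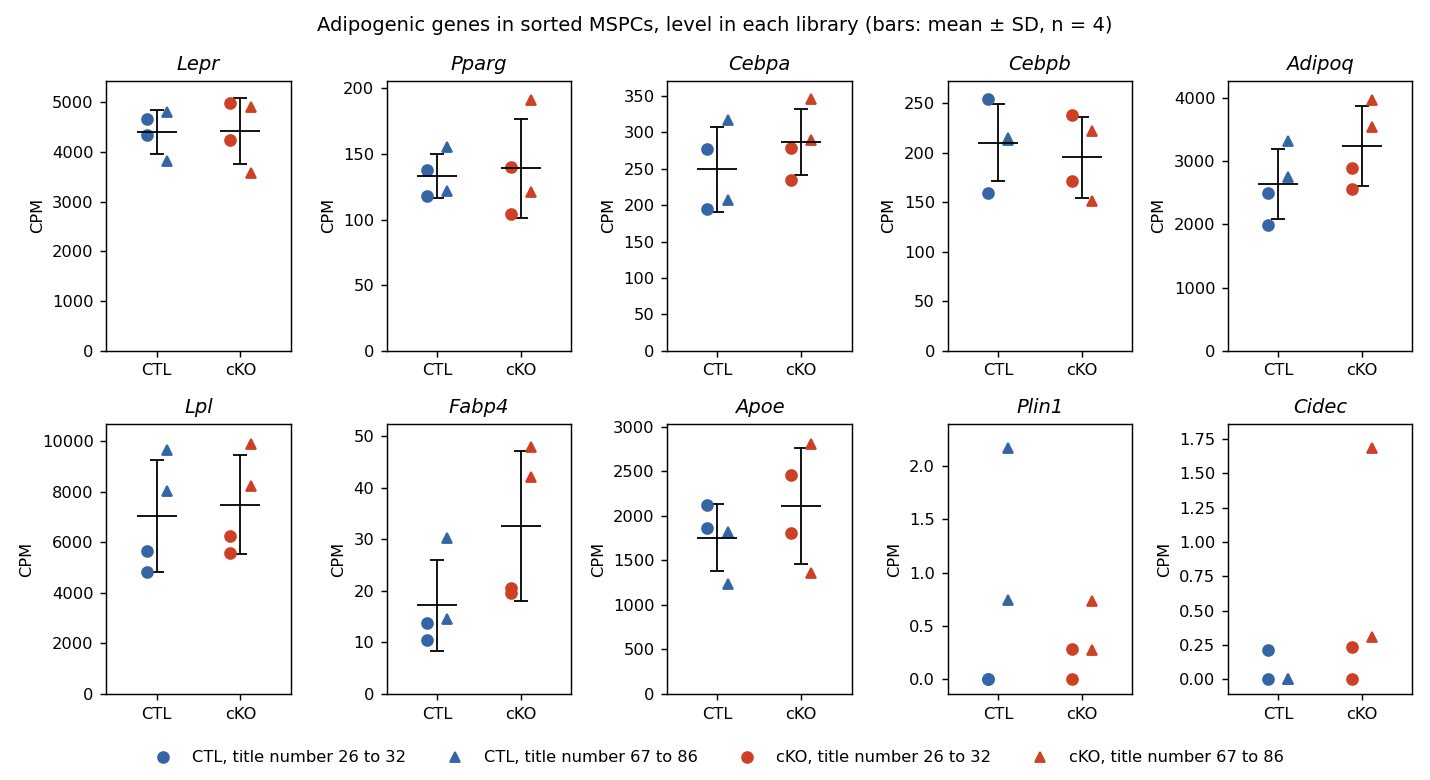
CPM of each of the 10 genes in the 4 CTL and 4 cKO libraries, with linear axes that start at 0 (slightly below 0 for Plin1 and Cidec), bars for the mean and SD of each genotype except for Plin1 and Cidec, and triangles for title numbers 67 to 86. The genotypes overlap for all 10 genes, and the 4 Lpl triangles lie at 8050 CPM and above while its 4 circles lie at 6247 CPM and below.

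In the genotype comparison as a whole, 0 of the 8 members tested passed an adjusted p of 0.05 (edgeR, Benjamini-Hochberg), against 0 of 14598 genes (0%). At an unadjusted p under 0.05 there was 1 member, Fabp4, which was higher in cKO, against 638 genes (4.37%), of which 324 (2.22%) were higher and 314 (2.15%) lower. This count was 0 without CTL1, CTL2, CTL4, cKO1 or cKO3, and 2 (Fabp4 and Adipoq) without CTL3 and in the fits with a title number term. The number of all genes at this level is given above for edgeR with that term. For the other fits it is not given here, so that their counts cannot be set against it. For 0 of the 8 did the 4 cKO libraries lie entirely to one side of the 4 CTL libraries, against 390 genes (2.67%). The log2 fold change was above 0 for 7 of 8 members, with a median of 0.15, against 48.9% of all genes and a median of -0.01. The signs of Lepr, Pparg, Lpl and Cebpb turned when single libraries were left out. The members are known parts of a common program and are not independent of each other. A p that misses the threshold does not show that levels were alike: the standard errors of 0.14 to 0.39 leave room for changes of this order.

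Between title number groups Lpl, Fabp4 and Adipoq had the lowest p-values of the members. Libraries with title numbers 67 to 86 had more Lpl, at 8964 ± 956 CPM against 5586 ± 583 CPM (SD, n = 4), a log2 fold change of 0.68 (SE 0.11, unadjusted p = 0.00019, adjusted p = 0.111 in edgeR with genotype as a term). The groups did not overlap, and the difference was 0.75 within CTL and 0.61 within cKO. Fabp4 was at 33.7 ± 14.8 against 16.1 ± 4.80 CPM, a log2 fold change of 1.03 (SE 0.23, unadjusted p = 0.0016, adjusted p = 0.191). Its groups overlapped, since CTL1 with 14.5 CPM was below cKO2 and cKO4. Adipoq was at 3395 ± 507 against 2482 ± 372 CPM, a log2 fold change of 0.45 (SE 0.11, unadjusted p = 0.0026, adjusted p = 0.209), with CTL1 below cKO4. The other members tested had log2 values of 0.24 (Pparg), 0.23 (Cebpa), -0.04 (Cebpb), -0.09 (Lepr) and -0.21 (Apoe), each with an unadjusted p of 0.198 or more. Plin1 had a count in all 4 libraries with numbers 67 to 86, at 9 to 70 counts, and in 1 of the 4 with numbers 26 to 32.

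Among the 8 members tested, 0 passed an adjusted p of 0.05 between title number groups, against 2 of 14598 genes (0.0137%). At an unadjusted p under 0.05 there were 3 members, all higher in 67 to 86, against 1690 genes (11.6%), of which 740 (5.07%) were higher and 950 (6.51%) lower. The log2 fold change was above 0 for 5 of the 8, with a median of 0.23, against 49.1% of all genes and a median of -0.01. For 1 of the 8, Lpl, the groups did not overlap, against 1001 genes (6.86%). With DESeq2's likelihood ratio test and genotype as a term, Lpl (adjusted p = 1.26e-05), Fabp4 (adjusted p = 0.00229) and Adipoq (adjusted p = 0.0173) passed the threshold, as did 342 of all genes. What the title number stands for was not tested, and any batch it marks cannot be told apart from other differences between these libraries.

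**Figure D3:**
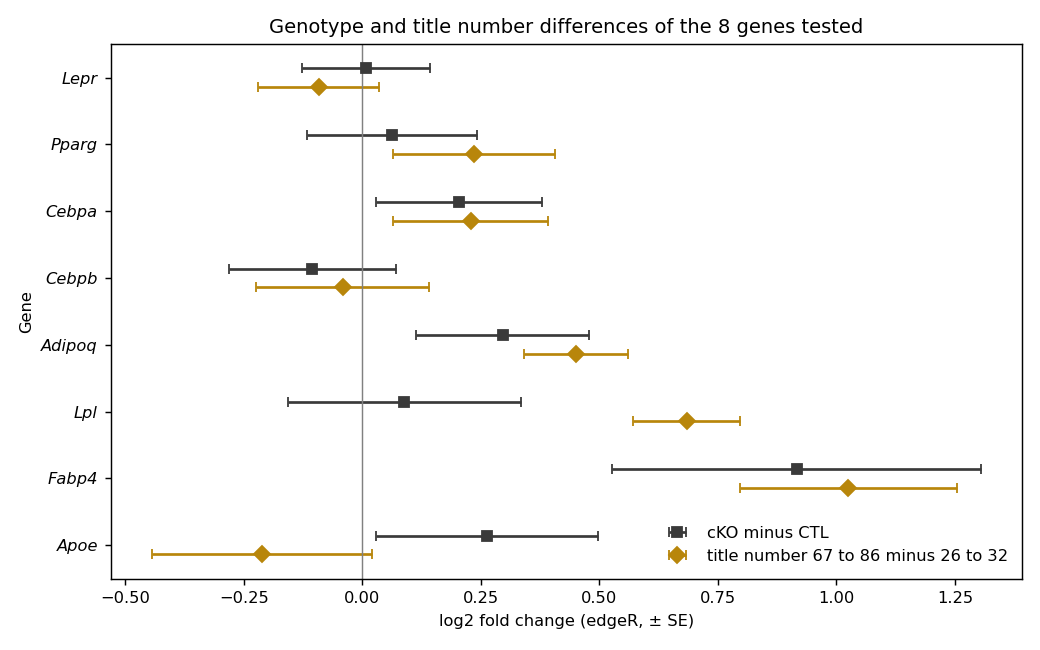
Log2 fold change with its standard error for the 8 genes tested, for cKO minus CTL (squares) and for title numbers 67 to 86 minus 26 to 32 (diamonds). The title number difference of Lpl, 0.68, stands apart from its genotype difference of 0.09, and for Fabp4 both differences are near 1 with wider bars for genotype.

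Sums of markers of other cell types and of osteoblast markers are given beside these differences. The summed level of 6 erythroid markers was 124 to 232 CPM in 67 to 86 and 57.2 to 145 CPM in 26 to 32, and that of 11 macrophage markers was 40.0 to 52.5 against 22.8 to 51.3 CPM. The 7 osteoblast markers, mostly Ibsp and Spp1, summed to 10308 to 13475 CPM in 67 to 86 and 13213 to 15799 CPM in 26 to 32. Ibsp and Spp1 took places 4 and 32 among all genes by mean TPM in these sorted cells. The osteoblast sum therefore does not separate osteoblasts from the MSPCs themselves. Of the 7 markers, Ibsp (log2 fold change -0.44), Dmp1 (-0.67) and Col1a1 (-0.19) were lower in 67 to 86. Spp1 (0.26), Alpl (0.34), Sp7 (0.43) and Bglap (0.96) were higher. For each of these sums the exact permutation test gave p = 0.0571 or 0.0857 (two-sided), above the lowest value of 0.0286. In bulk RNA, more cells of a type and more RNA per cell cannot be told apart. Of the mature fat cell markers that are not members, Retn was at 0 in all libraries, Lep at 0 in all but cKO4 (14 counts), and Plin4 had 0 to 20 counts, whereas Cfd (5 to 322 counts) and Lipe (111 to 430 counts) were detected in every library. Lipe was at 3.60 to 8.09 CPM in 67 to 86 and at 7.77 to 11.5 CPM in 26 to 32, the opposite order to Lpl (log2 fold change -0.60, unadjusted p = 0.0749 in edgeR). The part of these cells in the Lpl, Fabp4 and Adipoq differences was not tested.

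Some members varied together from mouse to mouse, others in opposite directions, and many pairs had an r near 0. After removal of the mean of each title number group, the log2 CPM deviations of Adipoq had a Pearson r of 0.91 with those of Fabp4 and of 0.83 with those of Lpl over the 8 libraries, and Lpl and Fabp4 had an r of 0.64. Lepr went the other way from the transcription factors, with r of -0.89 with Pparg, -0.71 with Cebpa and -0.64 with Cebpb. Leaving out any 1 library left the r of Adipoq with Fabp4 between 0.88 and 0.93, that of Adipoq with Lpl between 0.72 and 0.96, that of Lpl with Fabp4 between 0.51 and 0.86, and that of Lepr with Pparg between -0.95 and -0.81. Of the 28 pairs 17 were positive, and the share among pairs of all genes is not given here. Differences between genotypes remain in these deviations. With the mean of each genotype and title number group removed, r was 0.78 for Adipoq with Fabp4, 0.96 for Adipoq with Lpl, 0.76 for Lpl with Fabp4 and -0.90 for Lepr with Pparg, whereas Cebpa with Fabp4 went from 0.02 to -0.81. These values are descriptions over 8 libraries that share their scaling between genes, and no value was computed within a title number group, which holds 4 libraries.

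**Figure D4:**
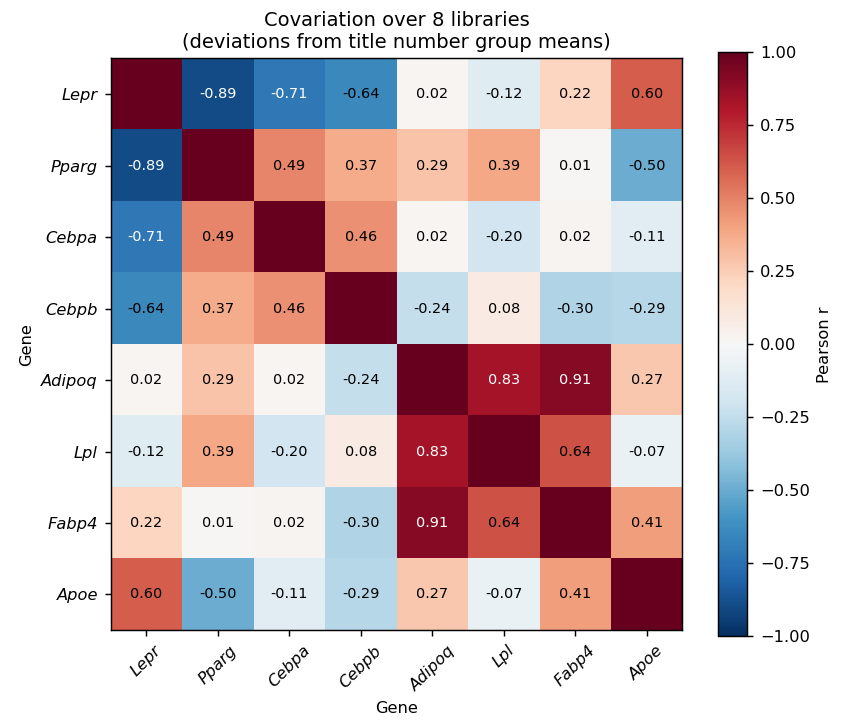
Pearson r between the 8 genes tested, over 8 libraries, of log2 CPM deviations from the mean of each title number group (red positive, blue negative). Adipoq, Lpl and Fabp4 form a block with r of 0.64 to 0.91, and Lepr is negative with Pparg, Cebpa and Cebpb.

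Many genes matched a member as closely. Among the 9398 genes with a mean level of 10 CPM or more, the 3 most like Lepr were Ascc2 (r of 0.98), Sf3b3 (0.96) and Galnt2 (0.96). The 3 most like Adipoq were Cldn12 (0.98), Tmem62 (0.97) and Bloc1s4 (0.96), with Fabp4 at place 21 and Lpl at place 95. The 3 most like Pparg were Aoc3 (0.98), Slfn5os (0.98) and Mkks (0.96), and Lepr stood at place 9355 of 9398 for Pparg.

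The wider pathway was examined in 10 lists with 104 genes, of which 80 were tested. Between genotypes 0 of the 80 passed the threshold, and 5 had an unadjusted p under 0.05, 3 of them higher and 2 lower in cKO, near the share among all genes (4.37%, with 2.22% higher and 2.15% lower). The log2 fold change was above 0 for 49 of the 80, with a median of 0.06, against 48.9% and -0.01 over all genes. Between title number groups 0 of the 80 passed, and 13 had an unadjusted p under 0.05, 9 higher and 4 lower in 67 to 86, with a median of 0.02, against 11.6% of all genes (5.07% higher and 6.51% lower). The title number groups did not overlap for 4 of the 80 (Plin3, Aqp7, Slc27a4 and Jak2), against 6.86% of all genes. The medians of the single lists ran from -0.07 (repressors) to 0.25 (lipolysis) between genotypes and from -0.40 (brown and beige fat, 2 genes tested) to 0.27 (fatty acid capture) between title number groups.

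Of the 14 regulators tested, which act with Pparg and Cebpa, 1 had an unadjusted p under 0.05 between genotypes. This was Klf15, a factor induced during adipogenesis, at 58.6 to 73.9 CPM in CTL and 39.6 to 61.4 CPM in cKO (edgeR log2 fold change -0.45, SE 0.14, unadjusted p = 0.0108, adjusted p = 1.00). The most abundant per length were Cebpd (261 TPM), an early factor like Cebpb, Klf9 (178 TPM) and Ebf1 (167 TPM). Nr1h3, the sterol receptor LXRα, had a title number difference of 0.36 (unadjusted p = 0.0191). Of the 11 repressors tested 0 had an unadjusted p under 0.05 between genotypes. Klf2 (107 TPM), Wwtr1 (61.6 TPM) and Klf3 (53.2 TPM) were the most abundant of them, and Zfp521 had a title number difference of -0.39 (unadjusted p = 0.0492).

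Of the 9 tested genes of fatty acid capture, which work beside Lpl and Fabp4, 3 had an unadjusted p under 0.05 between title number groups and all 3 were higher in 67 to 86, against 5.07% of all genes. Aqp7, the channel through which glycerol leaves fat cells, was at 46.8, 91.3, 110 and 122 CPM in CTL1, CTL3, cKO1 and cKO3 and at 21.4, 39.4, 45.2 and 39.8 CPM in CTL2, CTL4, cKO2 and cKO4. The title number groups did not overlap for Aqp7 (log2 fold change 1.31, SE 0.24, unadjusted p = 0.0004, adjusted p = 0.130). Angptl4, a secreted inhibitor of LPL, was the most abundant gene of this list at 796 TPM. Its CPM ranged from 685 to 1372 apart from CTL4 at 478 and cKO4 at 572, and its title number difference was 0.72 (SE 0.19, unadjusted p = 0.0045, adjusted p = 0.231). Slc27a4, a fatty acid transporter, had a difference of 0.26 (unadjusted p = 0.0266), with groups that did not overlap. Between genotypes, all 9 tested genes of this list had a log2 fold change above 0, from 0.03 to 0.85 with a median of 0.05, against 48.9% of all genes, and 0 had an unadjusted p under 0.05. In DESeq2's likelihood ratio test Aqp7 (adjusted p = 3.5e-05) and Angptl4 (adjusted p = 0.0173) passed the threshold between title number groups.

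**Figure D5:**
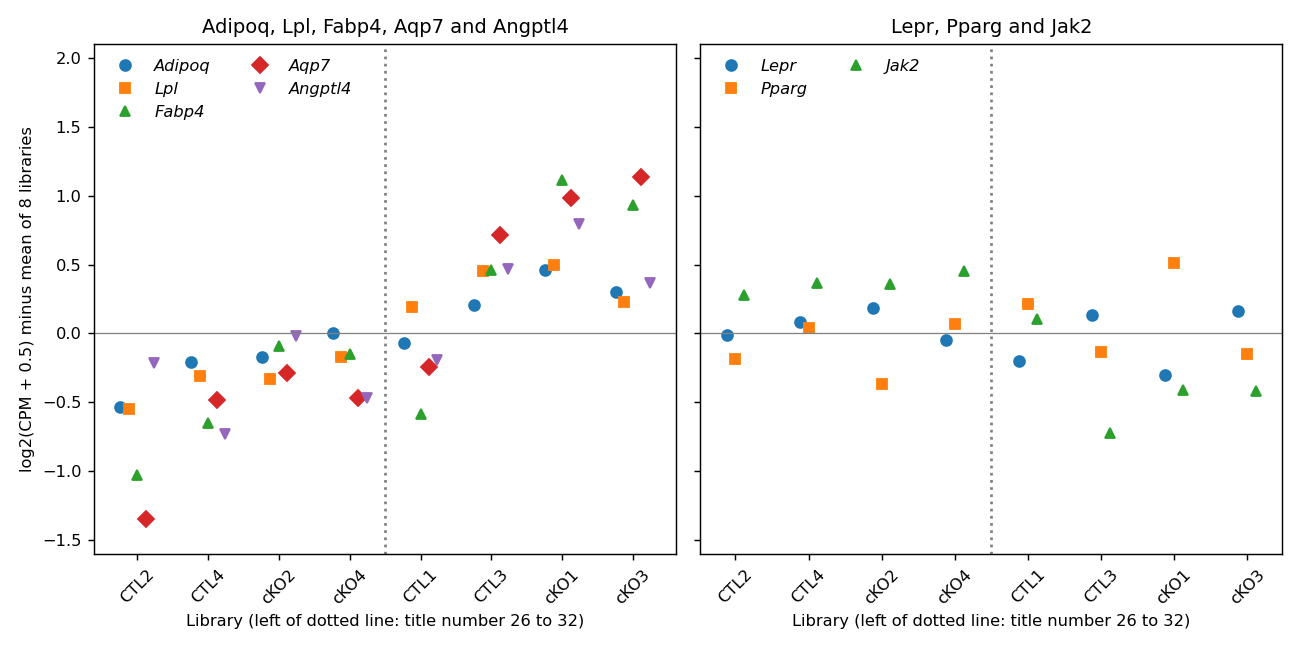
Log2(CPM + 0.5) in each library minus the mean of the 8 libraries, for Adipoq, Lpl, Fabp4, Aqp7 and Angptl4 (left) and for Lepr, Pparg and Jak2 (right), with title numbers 26 to 32 left of the dotted line. CTL3, cKO1 and cKO3 are above 0 for all 5 genes at left, CTL1 is above 0 there for Lpl alone, and Jak2 is above 0 in CTL1 and in the 4 libraries with numbers 26 to 32.

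The coat of the lipid droplet was present in part. Of 11 genes in the list 6 were tested, and G0s2 (210 TPM), an inhibitor of lipolysis, Bscl2 (97.7 TPM), which encodes the droplet biogenesis protein seipin, and Plin3 (65.9 TPM), a perilipin of many tissues, were the most abundant. Cidea and Fitm1 were at 0 in all libraries, and Plin5 had 0 to 4 counts. Plin3 (0.35, unadjusted p = 0.0054) and Fitm2 (0.54, unadjusted p = 0.0191), a protein of droplet budding, were higher in libraries with title numbers 67 to 86 before adjustment. Of the 4 lipolysis genes, Pnpla2, which encodes the lipase ATGL, measured 21.5 to 29.3 CPM in CTL and 27.7 to 32.8 CPM in cKO (log2 fold change 0.36, SE 0.14, unadjusted p = 0.0277). Abhd5, the activator of ATGL, was the most abundant of the 4 (49.6 TPM) and had a title number difference of 0.33 (unadjusted p = 0.0440), and Lipe, the hormone-sensitive lipase, was low at 4.62 TPM. Of the 9 triglyceride synthesis genes tested, Dgat2, which adds the last fatty acid, measured 7.26, 2.20, 8.48 and 10.4 CPM in CTL1 to CTL4 and 23.2, 10.3, 17.8 and 8.86 CPM in cKO1 to cKO4. Its log2 fold change was 1.08 (SE 0.46, unadjusted p = 0.0408), and CTL4 lay above 2 cKO libraries. Agpat2 (83.0 TPM), Gpat4 (59.4 TPM) and Dgat1 (42.3 TPM) were the most abundant of this list.

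In the list of 12 genes for other fat hormones and adiponectin receptors, Rarres2, which encodes chemerin, was the most abundant at 487 TPM. The adiponectin receptor Adipor1 (126 TPM) and Nampt (53.3 TPM) followed. Apln, the apelin gene, had 1.22 to 5.36 CPM in CTL and 0.495 to 2.12 CPM in cKO (log2 fold change -1.31, SE 0.56, unadjusted p = 0.0413). Of 8 genes downstream of or beside Lepr, Socs3 (636 TPM), Leprot (330 TPM) and Stat3 (134 TPM) were the most abundant. Socs3 is a feedback inhibitor, and Leprot regulates traffic of the receptor. Between genotypes 0 of the 8 had an unadjusted p under 0.05. Jak2, the kinase bound to the receptor, was lower in title numbers 67 to 86 without overlap, at 50.6 to 90.0 against 102 to 115 CPM (log2 fold change -0.70, SE 0.16, unadjusted p = 0.0022, adjusted p = 0.207), Stat3 had a difference of -0.24 (unadjusted p = 0.0421), and Ptpn1, a phosphatase acting on JAK2, had one of 0.48 (unadjusted p = 0.0214). In DESeq2's likelihood ratio test Jak2 passed the threshold (adjusted p = 0.0105).

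Beside Apoe, the lipoprotein list held Pltp (305 TPM), a phospholipid carrier, Lrp1 (242 TPM), a receptor for APOE, and Apod (119 TPM), while Apoc2 and Apoc4 were at 0 in all libraries. Abcg1, a cholesterol exporter, was higher in each cKO library than in each CTL library, at 8.20, 6.72, 4.07 and 4.77 CPM in cKO1 to cKO4 and 3.34, 3.66, 1.55 and 2.47 CPM in CTL1 to CTL4 (log2 fold change 1.11, SE 0.37, unadjusted p = 0.0128, adjusted p = 1.00). The related exporter Abca1 did not follow it between genotypes (0.15, unadjusted p = 0.501) and had a title number difference of -0.51 (unadjusted p = 0.0057), and Pltp had one of 0.32 (unadjusted p = 0.0366). Genes of brown and beige fat were nearly absent: Ucp1, Dio2, Cox8b and Elovl3 were at 0 in all libraries, and the 2 tested genes, Prdm16 and Tmem26, were at 4.60 and 2.34 TPM. Ppargc1a had 0 to 27 counts.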

How the data were processed

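RNA of sorted MSPCs from 4 CTL and 4 cKO mice was sequenced after poly(A) selection. Per the methods, paired reads had been trimmed, aligned to GRCm38 (mm10) with HISAT2, counted by gene with HTSeq-count, and analysed with DESeq2 and a batch correction. The authors deposited raw counts per gene without normalization. Versions and the strand setting are not given in the sources used here. Gene positions and exon lengths are those of GENCODE M21 (GRCm38), not the release that the methods cite, and 52403 identifiers matched a symbol.

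TMM scaling of library sizes was used. The 14598 genes detected in all 8 libraries were compared with edgeR 4.0.16 in R 4.3.3 (glmQLFit and glmQLFTest, Benjamini-Hochberg adjustment over all genes tested, threshold 0.05), between genotypes without covariates and between title number groups with genotype as a term. The labels call the libraries biological replicates. TPM were computed from counts and the union of annotated exons. Exact permutation tests (scipy 1.17.1) covered the 70 ways to divide 8 libraries into 4 and 4, or all sign flips for neighbors in the level order, on log2 values with 0.5 added to CPM and 0.1 to TPM. Depth was 31047344 to 38216877 counts. The members and the gene lists were chosen with earlier results of these data known. Named beside the members were, from each list, genes with an unadjusted p under 0.05 in either comparison and the 3 highest in mean TPM, genes past the threshold, the 3 genes most like Lepr, Adipoq and Pparg, and genes that overlap a member. List genes at or near 0 in all libraries were named after their values were seen. Alternatives were RLE scaling, total counts without TMM, other filters, limma-voom (limma 3.58.1), DESeq2 1.42.0, the title number group or replicate number as a term, and each library left out in turn. In all, 34 fits across genes were made. The edgeR fit was tested on simulated counts with 200 changed genes. Promoter windows are from RefSeq on GRCm38.p6, where no window was used for Lpl and Fabp4.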

Additional observations from a re-analysis of the deposited data

Results flagged for a closer look

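In the CTL group Cidec had 0.214 CPM (7 counts) in CTL2 and 0 in the other 3 libraries, so that the gap of CTL2 to the rest was the whole range of the group (ratio 1.0). With the other 3 libraries at 0 the ratio is 1.0 for any count above 0, and 7 counts lie near the limit of detection. The search covered 20 groups of 4 libraries, among which about 1 such value is found by chance.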

How the results depend on the processing

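The deposited depth limits Plin1 and Cidec, whose counts of 0 to 70 per library gave no test under the filter. Between genotypes, 0 genes passed in edgeR, 1 with filterByExpr, 1 with no filter, 22 with DESeq2's likelihood ratio test and 47 with that test plus a title number term. The count was 0 without any 1 library. The members past the threshold were 0 in all these fits, with a lowest adjusted p of 0.0647 for Fabp4 (log2 fold change over all settings 0.67 to 1.33). Between title number groups the count of genes was 2, then 1 with RLE scaling, 1 with limma-voom, 4 with no filter, 0 with no genotype term, 342 with DESeq2's likelihood ratio test, and 0 to 4 without 1 library. Of the members, 3 passed in that DESeq2 test (Lpl, Fabp4 and Adipoq) and 0 in the other fits. The cause of these shifts was not tested. Small genotype differences changed sign: Lepr to -0.000201 in limma-voom, -0.000107 in the replicate block, and -0.053, -0.055 and -0.042 without CTL1, cKO2 or cKO3 (range -0.055 to 0.097 without 1 library), Lpl to -0.056, -0.0017 and -0.076 without CTL2, CTL4 or cKO1 (range -0.076 to 0.28), Pparg to -0.13 without cKO1 (range -0.13 to 0.18), and Cebpb to 0.0018 without cKO3 (range -0.22 to 0.0018). The title number difference of Cebpb became 0.086, 0.077 and 0.076 without CTL2, cKO3 or cKO4 (range -0.18 to 0.086).

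With the replicate number as a block, 0 genes passed between genotypes and 805 had an unadjusted p under 0.05, among them Fabp4 (0.0066) and Adipoq (0.0167). Deviations of same-numbered libraries had an r of 0.15, 0.19, 0.09 and 0.06. CTL3 (0.0949 with cKO1 against 0.0925) and CTL4 (0.137 with cKO2 against 0.0631) were closer to a library of another number. Whether libraries of the same number belong together cannot be told from these values. The block could not be fitted with the title number, within which it is nested.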

Other observations

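Among the 80 pathway genes tested, those whose log2 CPM deviations from title number group means were most like Fabp4 were Aqp7 (Pearson r of 0.94 over 8 libraries), Pnpla2 (0.92) and Rxra (0.90), the partner receptor of PPARγ. Klf15 was the most unlike Fabp4 (-0.80) and the most unlike Adipoq (-0.81), and Adipoq was most like Aqp7 (0.89), Dgat2 (0.88) and Pnpla2 (0.80). Differences between genotypes remain in these deviations. The genotype log2 fold change was 0.92 for Fabp4, 0.30 for Adipoq, 0.67 for Aqp7, 0.36 for Pnpla2, 0.33 for Rxra, 1.08 for Dgat2 and -0.45 for Klf15. These genes were picked after their values were seen. Groups did not overlap between genotypes for 3 of the 80 (Abcg1, Rxra and Scarb1), near the share of 2.67% among all genes. Rxra was higher in each cKO library, at 123 to 134 CPM, than in each CTL library, at 67.4 to 118 CPM, with an unadjusted p of 0.0705 from edgeR. Scarb1, the receptor for HDL, measured 24.1 to 37.1 CPM in cKO against 19.9 to 24.0 CPM in CTL (unadjusted p of 0.0746).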
